A study of Homo sapiens with 4 samples.

Results

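Heat shock proteins are molecular chaperones, proteins that help other proteins fold and keep damaged ones from clumping. In the cytosol, HSP70 proteins bind unfolded chains, J-domain proteins such as DNAJB1 deliver the clients and exchange factors such as HSPH1 release them, and HSP90 then matures kinases and other signalling proteins, with mutant BRAF among its known clients. In mitochondria, HSPD1 (HSP60) and its lid HSPE1 (HSP10) form a folding chamber. HSF1 drives the inducible members, chiefly HSPA1A, HSPA1B, DNAJB1 and HSPH1, through heat shock elements in their promoters, whereas HSPA8 and HSP90AB1 are made in unstressed cells.

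The 10 genes described here are HSP90AA1, HSP90AB1, HSPA8, HSPA1A, HSPA1B, DNAJB1, HSPH1, HSPD1, HSPE1 and HSPB1, out of 34241 genes listed in at least 1 of the 4 tables. They were chosen by name as cytosolic and mitochondrial chaperones, with earlier results of these data known. All 10 were listed in every table. The data are single-cell RNA counts from A375, an established human melanoma line with the activating BRAF V600E mutation. S cells were untreated. RV cells were kept on the BRAF inhibitor vemurafenib, RVC cells on vemurafenib with the MEK inhibitor cobimetinib, and RVT cells on vemurafenib with the MEK inhibitor trametinib, each for 10 to 14 days at a dose below the IC50, and the inhibitors were taken off 24 h before capture. According to the paper, this made the RV, RVC and RVT cultures resistant to their inhibitors.

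Each condition was 1 library, so no difference below has a replicate check and none was tested. Levels are given as UMIs (counted RNA molecules) per 1000000 UMIs of the library, written CPM, with exact 95% Poisson intervals that cover counting error only. After filtering, the libraries S, RV, RVC and RVT held 6334, 4177, 7620 and 8443 cells. The median cell had 8804 UMIs in S and 11553 in RV, against 3954.5 in RVC and 2867 in RVT. RVC and RVT also shared a gene annotation that differed from that of S and RV, so that annotation, depth and double treatment cannot be told apart. The summed level of 9 melanoma markers was 140, 70.8, 16.1 and 79.5 CPM in S, RV, RVC and RVT, with 1, 1, 4 and 2 markers at 0. SOX10, a defining transcription factor of melanoma, had 0 UMIs in RVC, which allows a level of up to 0.0913 CPM taken as 3 UMIs (0.112 CPM by the exact interval), and was at 86.7 CPM in S, at 40.2 CPM in RV and at 19.4 CPM in RVT. The paper names SOX10 among the genes of a neural crest-like cluster, made up mainly of S cells and nearly lost under treatment. Of the 5 markers with UMIs in both S and RVC, 2 were above S in RVC and 3 below. Whether the missing SOX10 goes with cell state or with the identity of the RVC culture was not tested. The 8 markers of blood, endothelial and epithelial cells summed to between 0.889 and 1.37 CPM, with 4 or 5 of them at 0 in each library.

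The promoters of the members were searched for the sequence that HSF1 recognises. Heat shock elements are built of the 5-base unit NGAAN in alternating direction, so the pairs GAANNTTC and TTCNNGAA were looked for in the 250 bases before each RefSeq start site (GRCh38.p14; each motif reads the same on both strands, and the pairs may overlap). At least 1 pair stood in 8 of the 10 members, with no match in the windows of HSPH1 and HSPE1, against 14.0% of 27305 genes. The HSPD1 stretch with 3 pairs (chr2:197500053-197500090) also lies inside the span of HSPE1, but outside the window of HSPE1. Counted by window, since a gene can have several start sites, the pairs stood in 8 of 16 windows of the members and in 11.6% of 35116 windows in all. The stretches below are the 6 found outside annotated exons, shown because they hold these pairs, and capitals mark the pairs. HSPA1A and HSPA1B lie next to each other on chromosome 6, and their stretches differ in 1 of 38 bases.
HSPA1A, chr6:31815422-31815459, plus strand: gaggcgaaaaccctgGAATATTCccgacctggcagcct
HSPA1B, chr6:31827618-31827655, plus strand: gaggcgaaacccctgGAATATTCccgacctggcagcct
HSPB1, chr7:76302476-76302513, plus strand: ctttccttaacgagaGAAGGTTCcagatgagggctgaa
HSP90AB1, chr6:44247763-44247805, plus strand, inside the span of HSP90AB1: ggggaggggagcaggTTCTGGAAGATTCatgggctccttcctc
HSP90AB1, chr6:44247816-44247858, plus strand, inside the span of HSP90AB1: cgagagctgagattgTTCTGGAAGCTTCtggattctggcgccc
DNAJB1, chr19:14518422-14518489, minus strand, inside the spans of DNAJB1 and of TECR on the other strand: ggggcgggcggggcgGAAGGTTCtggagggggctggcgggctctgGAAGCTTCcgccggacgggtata
A match describes these letters and does not show that HSF1 bound there in these cells.

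The summed level of the members was highest in RVC, whereas by library totals HSPA8 alone was highest in RVT and HSPB1 in RV. Together the 10 genes took 2646 CPM in S (interval 2633 to 2659) and 2715 CPM in RV (2701 to 2729). The same sum was 5538 CPM in RVC (5513 to 5564) and 2865 CPM in RVT (2844 to 2886). RVC thus stood apart from the other 3 libraries, and these genes took 0.554% of its UMIs against 0.265% in S. The plot of levels by library shows which genes made up the excess. RVC is also the library without SOX10 UMIs, and whether a difference between cultures other than the treatment took part in these levels was not tested.

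**Figure D1:**
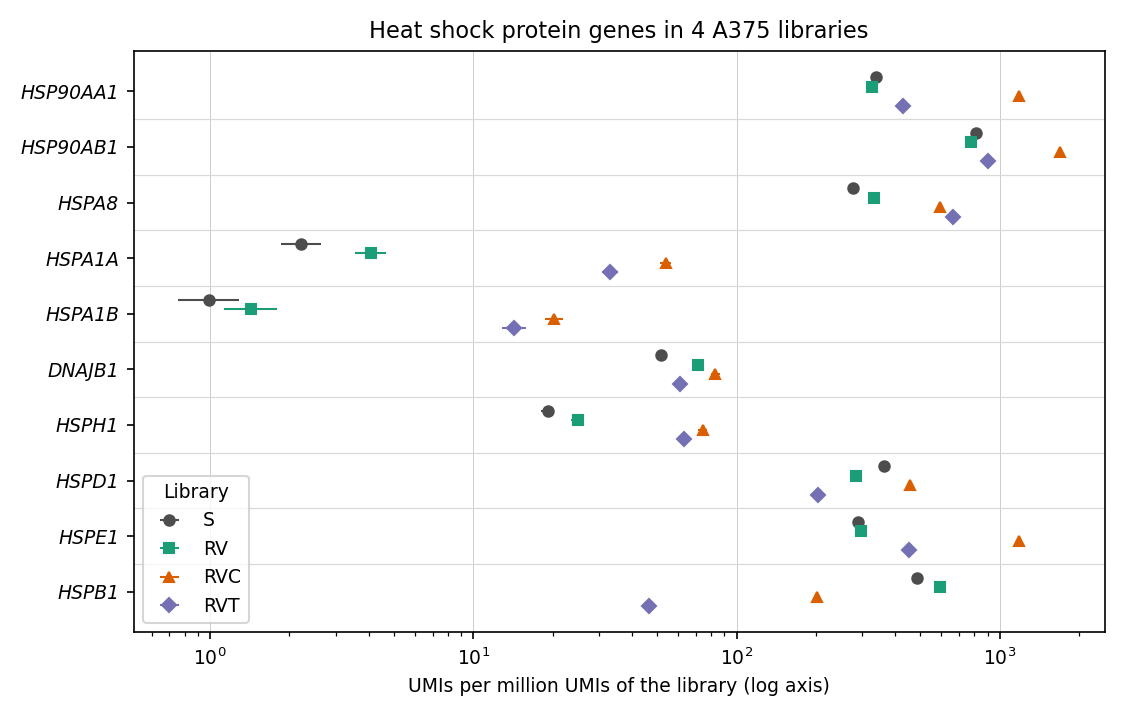
Levels of the 10 heat shock protein genes in the S, RV, RVC and RVT libraries, in CPM on a log axis with exact 95% Poisson intervals (hidden by most symbols). RVC is the highest library for 8 of the genes; HSPA8 is highest in RVT (under TMM scaling in RVC) and HSPB1 in RV.

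The HSP90 genes were at least 2-fold higher than in S in RVC and not in RV or RVT. HSP90AA1, the stress-responsive form (chromosome 14, 102080738 to 102139699, minus strand, GRCh38), was at 338, 328, 1179 and 429 CPM in S, RV, RVC and RVT. HSP90AB1, the constitutive form (chromosome 6, 44246166 to 44253888, plus strand), was at 816, 776, 1690 and 900 CPM in the same order. Only RVC was far from S for both: by 3.49-fold for HSP90AA1 (log2 ratio 1.80, interval 1.78 to 1.83) and by 2.07-fold for HSP90AB1 (1.05, 1.03 to 1.07). The HSP90AB1 ratio in RVC was under 2-fold under TMM scaling (log2 0.84), with ribosomal and mitochondrial genes left out of the total (0.86) and when centred on GC content (0.94). In RVT the excess over S was 1.27-fold and 1.10-fold, and it turned into a deficit when the libraries were scaled by TMM factors or the ratios were centred on GC content.

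The HSP70 genes were at least 2-fold higher than in S in both doubly treated libraries. HSPA8, the constitutive HSP70 (chromosome 11, 123057489 to 123063230, minus strand), was at 277, 334, 592 and 663 CPM in S, RV, RVC and RVT, which is 2.14-fold above S in RVC and 2.40-fold in RVT. Under those 3 settings the log2 ratio of HSPA8 in RVC was 0.88, 0.90 and 0.83, and in RVT it was 0.74 under TMM scaling, where RVT was below RVC for HSPA8 (log2 ratio -0.14). HSPA1A, the main inducible HSP70 (chromosome 6, 31815464 to 31817946, plus strand), was at 2.22 CPM (130 UMIs) in S and 4.09 CPM (214 UMIs) in RV, against 53.7 CPM (1766 UMIs) in RVC and 33.0 CPM (838 UMIs) in RVT. Its neighbour HSPA1B (31827735 to 31830255) was at 0.992 CPM (58 UMIs) in S and 1.43 CPM (75 UMIs) in RV, against 20.2 CPM (665 UMIs) in RVC and 14.3 CPM (362 UMIs) in RVT. These were the widest ratios of the 10 genes: HSPA1A was 24.2-fold higher in RVC than in S (log2 4.59, 4.34 to 4.86) and 14.8-fold in RVT, and HSPA1B was 20.4-fold and 14.4-fold higher. For HSPA1B the intervals of S (0.753 to 1.28 CPM) and RV (1.13 to 1.80) overlapped, with a log2 ratio of 0.53 (0.02 to 1.05). Reads can be lost or exchanged between the pair, since 12.9% of the 98-base windows in the last 500 bases of HSPA1A occur in HSPA1B as well. HSPA6, an HSP70 gene made only under strong stress, stayed between 0.154 and 0.487 CPM in all 4 libraries.

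The partners of HSP70 differed in their ratios. HSPH1, an exchange factor (chromosome 13, 31134974 to 31162388, minus strand), was at 19.1, 24.9, 74.6 and 63.3 CPM in S, RV, RVC and RVT, so that RVC and RVT were 3.90-fold and 3.31-fold above S (log2 1.96 and 1.73, and 1.34 and 1.00 when centred on GC content). DNAJB1, the J-domain protein that is induced with HSPA1A (chromosome 19, 14514770 to 14529770, minus strand), was at 51.5, 71.7, 83.2 and 60.8 CPM, a span of at most 1.61-fold, and its order of RVT and S turned under TMM scaling and GC centring. The libraries ordered alike for HSPA1A, HSPA1B and HSPH1, with S lowest and RVC highest, whereas RV exceeded RVT for DNAJB1. BAG3, another exchange factor of the same inducible group, was at 14.5, 18.9, 48.2 and 49.1 CPM in S, RV, RVC and RVT.

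The ratios of the mitochondrial chaperonin's subunits were unequal. HSPD1, the chamber (chromosome 2, 197486581 to 197516737, minus strand), was at 364, 285, 457 and 204 CPM in S, RV, RVC and RVT. HSPE1, the lid (197499994 to 197503457, plus strand), was at 290, 296, 1185 and 451 CPM. Their annotated spans overlap and they are transcribed in opposite directions. In RVC, HSPE1 was 4.08-fold above S (log2 2.03, 2.00 to 2.06) and HSPD1 was 1.26-fold above S (0.33, 0.30 to 0.36), which turned to -0.15 when centred on GC content. In RVT, HSPE1 was 1.56-fold above S and HSPD1 was 1.79-fold below it (log2 -0.84, -1.36 under TMM scaling and -1.32 when centred on GC content, which makes it the second member at least 2-fold below S in RVT). S and RV did not differ for HSPE1 beyond counting error (log2 ratio 0.03, -0.00073 to 0.06). For HSPE1, 29.3% of the 98-base windows in its last 500 bases recur in HSPE1-MOB4 or HSPE1 pseudogenes, against 0 windows for HSPD1. HSPE1-MOB4 itself had at most 1 UMI in any library.

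HSPB1, the small heat shock protein also called HSP27 (chromosome 7, 76302544 to 76304295, plus strand), was at least 2-fold below S in both doubly treated libraries by library totals. It was at 487, 594, 202 and 46.4 CPM in S, RV, RVC and RVT, which is 2.40-fold below S in RVC and 10.5-fold below S in RVT. The last 500 bases of its transcript are 63.8% G or C, more than in 98.2% of genes, whereas the other 9 members lie between 32.2% and 48.0%. A share of 10.7% of its 98-base windows recurs in the pseudogene HSPB1P1. Genes in the same range of GC content (325 genes, 60.8% to 73.8%) had a median log2 ratio of -2.40 in RVC over S and -2.37 in RVT over S, but 0.08 in RV over S. Set against those genes, HSPB1 was higher in RVC than in S by 1.13 on the log2 scale and lower in RVT by 1.02. In RVT over RVC, where that median was -0.02, HSPB1 was 4.37-fold lower in RVT. The trend with GC content separated the doubly treated libraries from S and RV across all genes (Spearman correlation of log2 ratio with GC content over 6501 genes, -0.35 in RVC over S), and its part in these ratios was not tested.

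Across the members, the median log2 ratio was 0.28 in RV over S, 1.45 in RVC over S, 0.49 in RVT over S and -0.81 in RVT over RVC. The median in RVT over S was -0.028 under TMM scaling and -0.0069 when centred on GC content, so its direction rests on the scaling. Over all genes that reached 50 CPM in the higher of both libraries compared, the medians were 0.04, 0.0036, -0.08 and -0.06. In RV over S, 0 of the 10 members were past 2-fold in either direction, against 2.48% of 2060 genes higher and 1.31% lower. In RVC over S, 7 members were at least 2-fold higher and 1 was at least 2-fold lower, against 24.9% and 31.8% of 2382 genes. Under TMM scaling and with ribosomal and mitochondrial genes left out of the total, 5 were higher, HSP90AB1 and HSPA8 being under 2-fold. When centred on GC content 5 of 9 were higher, HSPB1 among them, and HSPA1B had no value. In RVT over S, 4 were higher and 1 lower, against 26.4% and 33.1% of 2552 genes, and under TMM scaling 3 were higher and 2 lower. In RVT over RVC, 0 were higher and 4 lower, against 15.4% and 17.9% of 2183 genes, and 6 were lower under TMM scaling. With RV as the reference, RVC had 6 members higher and 1 lower (23.1% and 33.2% of 2442 genes), and RVT had 3 higher and 1 lower (25.3% and 34.4% of 2608 genes). The 50 CPM level was met by 7 members in RV over S, 9 in RVC over S, 8 in RVT over S and 9 in RVT over RVC. Among those alone, 6 of 9 were higher and 1 lower in RVC over S, and 2 of 8 were higher and 1 lower in RVT over S. With RV as the reference, 5 of 9 were higher in RVC and 1 of 8 in RVT. HSPA1A in RVC, and HSPH1 in RVC and RVT, reached 50 CPM there and not in S or RV. HSPB1 was under 50 CPM in RVT and met the level through the other library. The counts at 50 CPM are therefore not a separate support. RVC over S and RVT over S share the S library. TMM scaling moved the median of all genes to -0.21 in RVC over S and -0.60 in RVT over S. Relative to the median gene, 9 of 10 members were above it in RVC over S (median 1.45) and 8 of 10 in RVT over S (median 0.57).

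**Figure D2:**
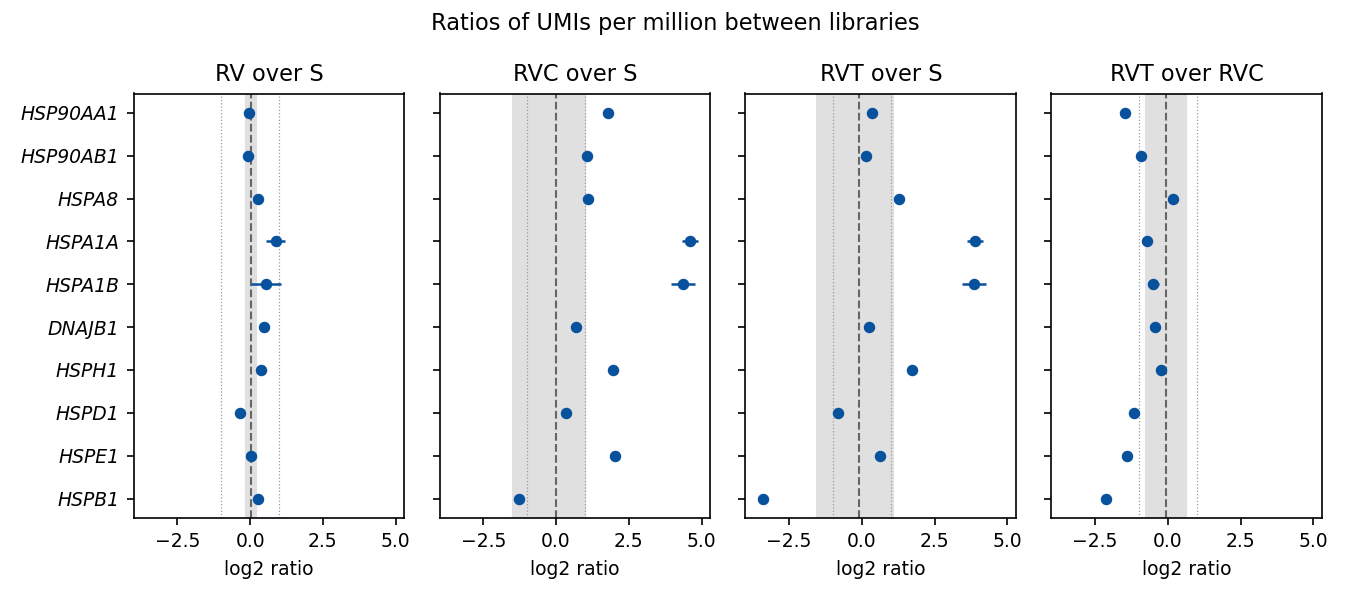
The log2 ratio of each gene's level in 4 comparisons, with exact 95% intervals; the grey band and dashed line are the interquartile range of all genes tested and their median, and dotted lines mark 2-fold. In RVC over S, 9 of the 10 genes lie right of the dashed line, and HSPB1 lies left of it.

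At equal depth the share of cells with a UMI was higher in RVC than in S for 9 of the 10 genes, HSPB1 being the exception. How many of all genes had a higher share in RVC was not counted. The same 9 genes were above S in RVC by library totals, so this count is not a separate result about the members. To compare shares at the same depth, each cell was thinned at random to 1500 UMIs, which left out 403 RVC and 848 RVT cells and none of S or RV. A UMI of HSP90AA1 was then found in 38.4%, 36.0%, 69.9% and 41.7% of the S, RV, RVC and RVT cells (without thinning 88.5%, 89.4%, 88.7% and 60.3%). For HSPE1 the shares at 1500 UMIs were 35.3%, 36.3%, 78.1% and 46.9% (without thinning 86.7%, 92.1%, 93.8% and 68.1%). HSPA1A was found in 0.410% of S cells (0.268 to 0.601), 0.886% of RV, 7.30% of RVC (6.71 to 7.93) and 4.28% of RVT (3.84 to 4.76), and without thinning in 1.97%, 4.38%, 18.4% and 8.02%. HSPB1 was found in 50.3%, 57.7%, 24.96% and 6.58% (without thinning 95.9%, 99.2%, 51.0% and 12.6%). No cells known to lack RNA of these genes were among those sequenced, so the background from free RNA was not measured. This limit also bears on the low shares of HSPA1A.

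**Figure D3:**
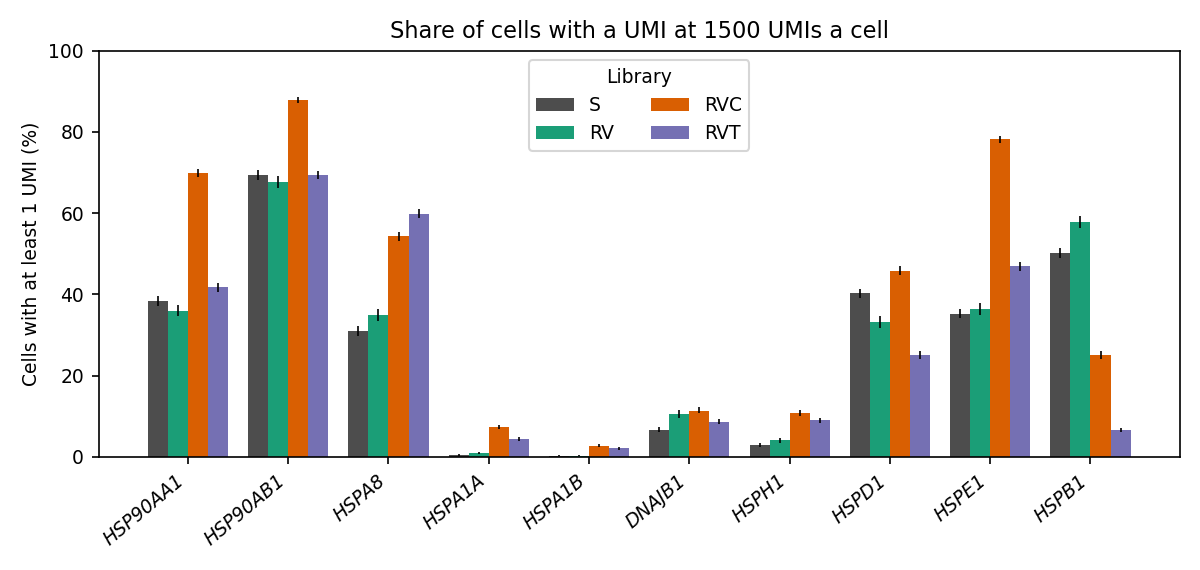
Percent of cells with at least 1 UMI of each gene after thinning every cell to 1500 UMIs, by library, with exact 95% binomial intervals. RVC bars are highest for 8 of the 10 genes, HSPA8 is highest in RVT (59.8%) and HSPB1 in RV (57.7%).

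The counts of HSP90AA1 varied between cells beyond their mean most in the doubly treated libraries. The variance over the mean of its thinned UMIs was 2.30 in RVC, 1.5005 in RVT, 1.21 in RV and 1.13 in S, beside a median of 1.025 and a 90th percentile of 1.16 over 2442 genes in RVC. This quantity grows with the mean, which was 1.74 UMIs in RVC and 0.624 in RVT; its excess over 1, divided by the mean, was 0.747 in RVC, 0.802 in RVT, 0.428 in RV and 0.259 in S. RVC was thus not above RVT once the level was allowed for. At least 5 of the 1500 UMIs came from HSP90AA1 in 8.69% of RVC cells, against 0.803% of RVT, 0.168% of RV and 0.0789% of S cells. That share, too, grows with the mean. HSP90AB1 had the same order of libraries, at 0.263 in RVT, 0.1997 in RVC, 0.0587 in RV and 0.0547 in S. HSPA8 and HSPE1 did not share it. For HSPA8 the excess over 1, divided by the mean, was 0.305 in RVC and 0.212 in RVT, against 0.579 in RV and 0.523 in S. For HSPE1 it was 0.213 in RVC, 0.186 in RVT, 0.1145 in RV and 0.184 in S.

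At equal depth, more pairs of members correlated between cells in RVC than in the other libraries, and less so without thinning. Over the 45 pairs, the median Pearson correlation of log counts in thinned cells was 0.011, 0.017, 0.028 and 0.027 in S, RV, RVC and RVT. In RVC 9 pairs had a correlation of 0.1 or more, against 3 in RVT, 1 in RV and 0 in S. The share over pairs of all genes was not counted. Correlations with HSPD1 of genes outside the members were also highest in RVC. Their 99th percentile was 0.070, 0.056, 0.104 and 0.040 in S, RV, RVC and RVT. The higher count in RVC is therefore not read as particular to the members. Without thinning, where depth differs from cell to cell, the counts were 12 in RVC, 5 in RVT, 8 in RV and 9 in S. The 9 pairs in RVC (7217 cells) joined HSP90AA1, HSP90AB1, HSPA8, HSPD1 and HSPE1, led by HSP90AA1 with HSP90AB1 at 0.27, HSP90AB1 with HSPD1 at 0.18 and HSP90AA1 with HSPA8 at 0.19. The same leading pair stood at 0.034 in S and 0.13 in RVT. HSPA1A with HSPA1B, between which reads can pass, stood at 0.12 in RV and in RVT. In RV that is the only pair at 0.1 or more and rests on 2 HSPA1B UMIs in the 37 cells with HSPA1A, and by Spearman correlation 0 pairs reached 0.1 there. In RVT the Spearman correlation of HSPA1A with HSPA1B was 0.063, and 2 pairs reached 0.1 by that measure. In cells called G1 alone, 7 pairs in RVC were at 0.1 or more and HSP90AA1 with HSP90AB1 was at 0.25. Thinned counts of a cell share its depth and its library, and a gene of low count cannot correlate strongly at this depth, so nothing is read from the low values for HSPA1A, HSPA1B and HSPH1. The same limit bears on the contrast between libraries, since the thinned means of HSP90AA1, HSPA8 and HSPE1 were 0.506, 0.403 and 0.451 UMIs in S against 1.74, 0.873 and 1.78 in RVC.

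**Figure D4:**
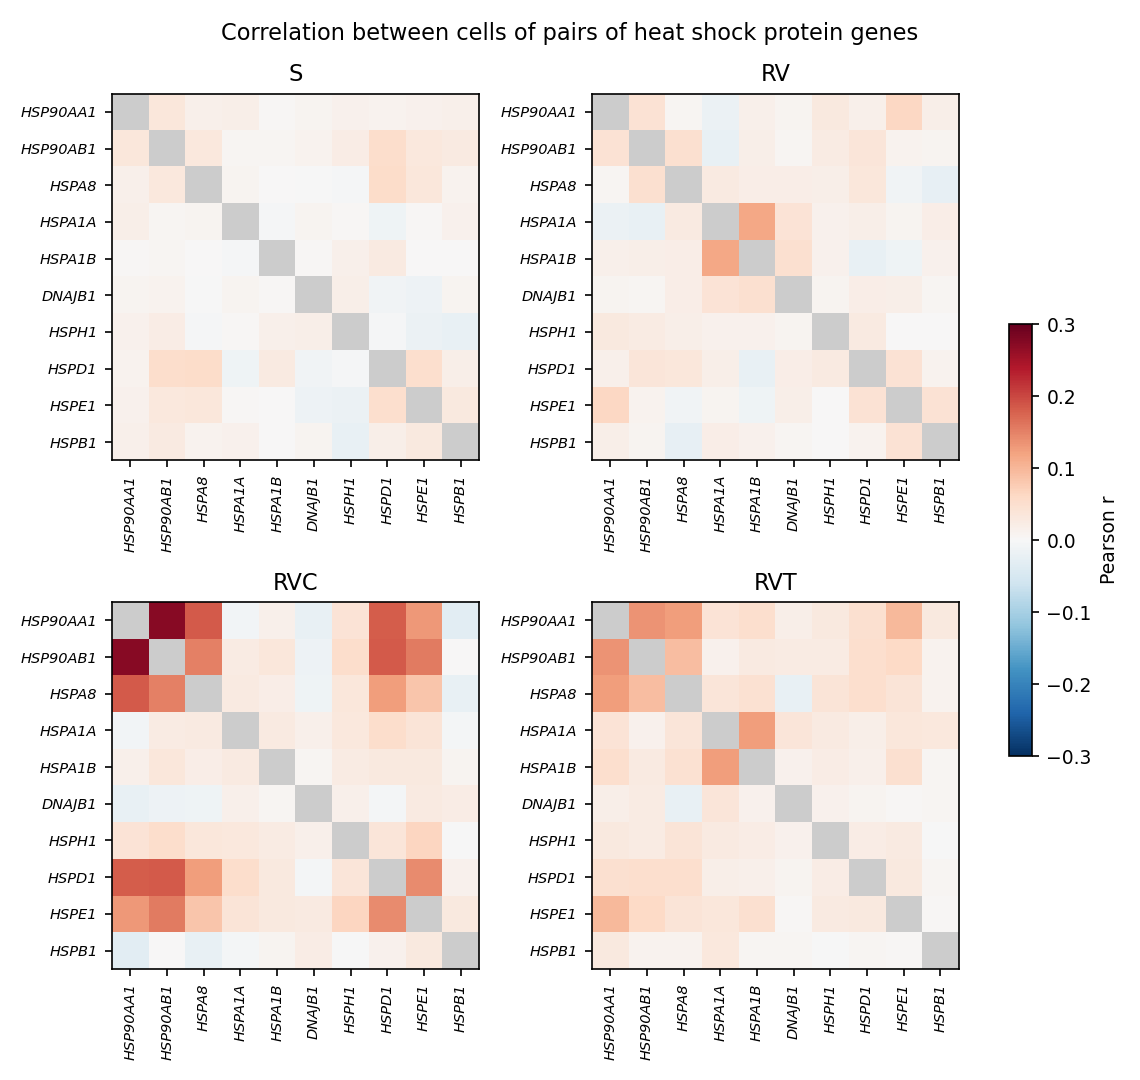
Pearson correlation between cells of each pair of genes in the 4 libraries, on log counts of cells thinned to 1500 UMIs (grey diagonal not plotted). A red block of HSP90AA1, HSP90AB1, HSPA8, HSPD1 and HSPE1 is seen in RVC, up to 0.27, and no pair exceeds 0.054 in S.

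Cells with a UMI of HSPA1A were compared with those without. In RVT, the 325 cells with it had 55.4 CPM of HSPA1B (27 UMIs) against 12.7 in the other 7270 cells (log2 ratio 2.13, 1.48 to 2.73), and 523 against 411 CPM of HSP90AA1 (log2 ratio 0.35, 0.16 to 0.53). In RVC, the 527 cells with it had 29.1 against 17.7 CPM of HSPA1B (0.71, 0.02 to 1.34), 104 against 74.9 CPM of HSPH1, and 555 against 440 CPM of HSPD1, but 1080 against 1166 CPM of HSP90AA1 (-0.11, -0.21 to -0.01). A UMI of HSP90AA1 was found in 69.5% and 69.9% of RVC cells with and without HSPA1A, and in 44.0% and 41.6% of RVT cells. In RVT, HSPA8 (0.24), DNAJB1 (0.58), HSPE1 (0.29) and HSPB1 (0.66) also had intervals above 0, and those of HSP90AB1, HSPH1 and HSPD1 spanned 0. In RVC, HSPA8 (0.18) and HSPE1 (0.20) did too, and the intervals of HSP90AB1, DNAJB1 and HSPB1 spanned 0. Only 26 cells in S and 37 in RV had HSPA1A. The intervals cover counting error only, and HSP90AA1 varied beyond it in RVC (variance over the mean 2.30). No lower level of HSP90AA1 is therefore read in RVC cells with HSPA1A, and the contrast between RVT and RVC was not tested. In RVC, HSPA1A, HSPH1 and HSPD1 were higher in G2/M than in G1 cells (64.1 against 40.4, 86.3 against 68.2 and 492 against 372 CPM). The cells compared were not matched for cell cycle phase, and the part of phase was not tested.

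Outside the members, the genes whose thinned counts went most closely with HSPD1 were SNRPB2 (0.17), NPM1 (0.16) and TIMP1 (0.12) in S, and TUBA1B (0.089), UBE2C (0.081) and ACTB (0.077) in RV. In RVC they were TUBA1B (0.18), RAN (0.15) and HMGB1 (0.14), and in RVT TUBA1B (0.060), MGST1 (0.058) and PTTG1 (0.058). TUBA1B, a tubulin, thus led in 3 of the 4 libraries, and UBE2C and PTTG1 are mitotic genes. For the sum of HSPA1A, HSPA1B, DNAJB1 and HSPH1, the closest genes stayed weak: RAB7A (0.044), PRRC2C (0.037) and CD151 (0.036) in S, NOC2L (0.060), CUEDC2 (0.052) and GARS (0.052) in RV, ARL6IP1 (0.082), MALAT1 (0.067) and CKS2 (0.066) in RVC, and MALAT1 (0.079), ATP6V0E1 (0.069) and B2M (0.066) in RVT. At this depth such values are a description and not a finding.

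Cell cycle composition differed between the libraries. Called from 43 G1/S and 54 G2/M genes, 20.3%, 31.6%, 48.4% and 13.3% of the S, RV, RVC and RVT cells were in G2/M, and the 54 G2/M genes summed to 1960, 2505, 4716 and 1473 CPM. HSP90AA1 was lower in G1 than in G2/M cells in every library: 308 against 403 CPM in S, 261 against 390 in RV, 928 against 1273 in RVC and 374.97 against 640 in RVT. Within G1 cells, HSP90AA1 was 3.02-fold higher in RVC than in S, and HSPE1 3.29-fold higher. HSPD1, by contrast, was at 371 CPM in S and 372 in RVC within G1 (log2 ratio 0.0032, -0.09 to 0.10), and its excess in RVC was seen in S-phase and G2/M cells. HSPA1A was 13.2-fold higher in RVC than in S within G1 (log2 3.72, 3.05 to 4.47), against a log2 ratio of 4.23 over all cells thinned alike. The part of the cell cycle in the differences between libraries was not tested.

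**Figure D5:**
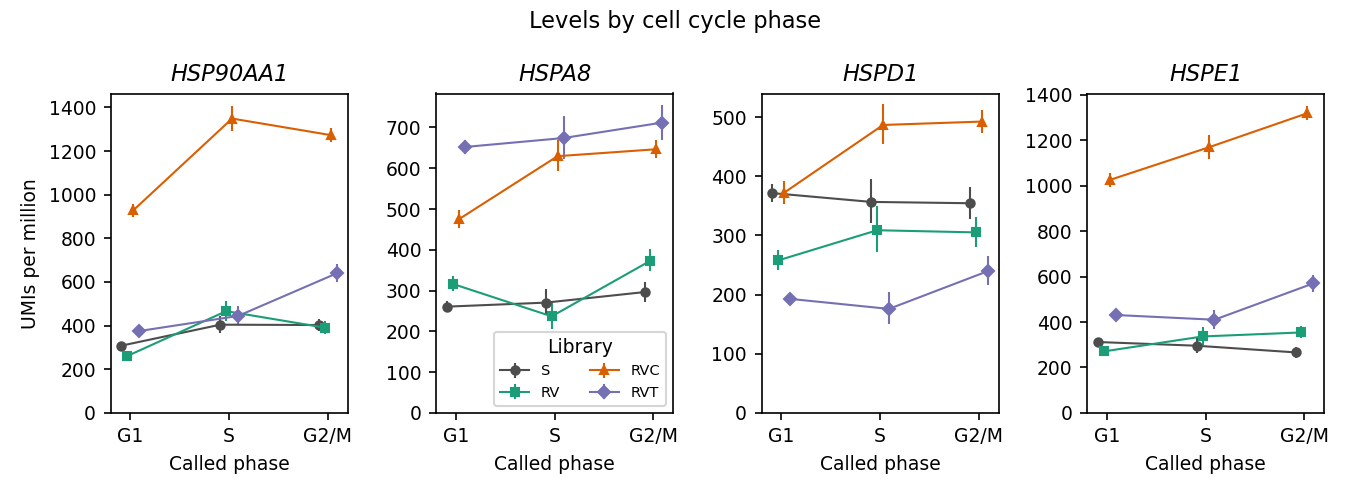
Levels of HSP90AA1, HSPA8, HSPD1 and HSPE1 in cells called G1, S and G2/M in each library, in CPM over cells thinned to 1500 UMIs, with exact 95% Poisson intervals. In RVC all 4 genes are lowest in G1, and the RVC and S points of HSPD1 in G1, 372 and 371 CPM, coincide.

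Some members differed with the mitochondrial share of a cell. When RVC cells were put in order of that share and split into 4 equal sets, from the lowest share to the highest, HSP90AA1 stood at 1714, 1130, 902 and 910 CPM, and HSPA1A at 41.2, 50.2, 60.4 and 65.6 CPM. All 4 HSP90AA1 values exceeded its level in S. In RVT, HSP90AA1 stood at 562, 371, 341 and 431 CPM and HSPA1A at 45.2, 29.7, 28.9 and 26.5 CPM in the same order, so that the order of HSPA1A was the reverse of that in RVC. The part of the mitochondrial share in these levels was not tested.

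Genes around the members were read from lists of the same pathways. Their ratios were not centred on GC content. Across all genes the log2 ratio over S fell with GC content (Spearman correlation -0.35 in RVC and -0.41 in RVT). The part of that trend in the values of HSF1 and the other listed genes was not tested. Of the heat shock factors, HSF1, the regulator itself, was at 66.6, 65.8, 10.5 and 8.90 CPM in S, RV, RVC and RVT, and HSBP1, a binding protein of HSF1, was at 372, 382, 765 and 707 CPM. HSF2 and HSF4 stayed under 50 CPM. Of 13 HSP90 co-chaperones, 10 reached 50 CPM in RVC over S, with 3 at least 2-fold higher and 3 at least 2-fold lower; in RVT over S the counts were 1 and 2 of 9. Over all genes, 24.9% were higher and 31.8% lower in RVC over S, and 26.4% and 33.1% in RVT over S, so the co-chaperone counts in RVC are near what all genes show. CHORDC1, a co-chaperone, was highest against S in both (24.4 CPM in S, 94.4 in RVC and 58.6 in RVT). Among those at 50 CPM, CDC37, which brings kinases to HSP90, was the lowest against S in all 3 drug libraries (252, 235, 63.7 and 44.8 CPM in S, RV, RVC and RVT). PTGES3 was the highest of them in RV (182 CPM in S, 220 in RV).

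Of 23 further HSP70 family genes and partners, 8 reached 50 CPM in RVC over S, with 2 at least 2-fold higher and 3 lower, and 9 in RVT over S, with 1 and 2. The shares of all genes were 24.9% and 31.8% in RVC over S and 26.4% and 33.1% in RVT over S. With genes under 50 CPM included, 22 had UMIs, and the lean was the other way. Of these, 10 were at least 2-fold higher and 5 lower in RVC over S (median log2 ratio 0.47, against -0.75 at 50 CPM). In RVT over S, 9 were higher and 4 lower (0.93 against -0.23). DNAJA1, a J-domain protein, was at 47.6, 58.1, 146 and 95.5 CPM in S, RV, RVC and RVT. Among the genes of its list that reached 50 CPM, its excess over S was the largest in each. The lowest against S among those at 50 CPM were ST13 in RV (282 and 245 CPM), BAG1 in RVC (63.6 and 15.7 CPM) and HSPBP1 in RVT (58.0 and 7.24 CPM). None of 6 further small heat shock protein genes reached 50 CPM. Of the 4 with UMIs, 2 were at least 2-fold higher and 2 lower in RVC over S, and 3 were higher and 1 lower in RVT over S. HSPB8 was at 0.513, 2.79, 7.97 and 26.3 CPM in S, RV, RVC and RVT, and HSPB3 at 0.171, 0.134, 25.7 and 1.02 CPM, both picked after their values were seen.

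Among 12 other mitochondrial chaperones and proteases, 8 reached 50 CPM in either comparison with S. In RVC over S, 0 were at least 2-fold higher and 3 lower, and in RVT over S, 1 was higher and 5 lower, with a median log2 ratio of -1.73 (-0.75 over all 12). Of all genes, 24.9% and 31.8% were higher and lower in the former comparison and 26.4% and 33.1% in the latter, with a median of -0.08. TRAP1, the mitochondrial HSP90, was lowest against S (73.5 CPM in S, 10.5 in RVC and 5.47 in RVT), and YME1L1, an inner membrane protease, was highest (36.9, 72.4 and 99.8 CPM). In RV the extremes among those at 50 CPM were GRPEL1 (59.9 CPM in S, 66.0 in RV) and LONP1 (50.7 and 30.2 CPM). HSPA9, the mitochondrial HSP70 that hands clients to HSPD1, stayed between 73.0 and 92.6 CPM.

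All 14 genes of the cytosolic chaperonin TRiC and its feeder prefoldin reached 50 CPM. In RVC over S, 1 was at least 2-fold higher and 3 lower, and in RVT over S the counts were 1 and 4, with 12 of the 14 below S. All genes gave 24.9% higher and 31.8% lower in RVC over S and 26.4% and 33.1% in RVT over S. PFDN2 was lowest against S (671 CPM in S, 103 in RVC and 64.2 in RVT). The highest were VBP1 in RV and RVC (61.4 CPM in S, 83.2 and 136) and PFDN5 in RVT (716 and 1959 CPM), and PFDN6 was lowest in RV (74.2 and 59.1 CPM). Among genes at 50 CPM under TMM scaling, 6 of 9 HSP90 co-chaperones, 4 of 9 HSP70 partners, 6 of 8 mitochondrial genes and 8 of 14 TRiC and prefoldin genes were at least 2-fold lower in RVT than in S, and 0 in each list were at least 2-fold higher. With lower genes included, 4 of 22 HSP70 partners were higher and 6 lower. TMM scaling lowered the median of all genes in RVT over S as well, and the share of all genes past 2-fold under it was not counted.

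Of the 13 chaperones of the endoplasmic reticulum, 11 were above S in RVT and 7 of them at least 2-fold, with 1 at least 2-fold lower and a median log2 ratio of 1.06. Under TMM scaling 9 were above S, 2 of them at least 2-fold, and the median was 0.54. For these counts without a limit on level, the share of all genes was not counted. Among the 9 that reached 50 CPM, 6 were at least 2-fold higher by library totals, against 26.4% of all genes, and 2 under TMM scaling. HYOU1, DNAJC3 and SERPINH1 reached that level through RVT and not S, whereas SDF2L1 and DNAJB11, both lower in RVT, did not reach it. In RVC over S, 1 of 7 was at least 2-fold higher, against 24.9% of all genes, and the median was 0.21. HYOU1, an HSP110-type chaperone of that compartment, was highest in RVT (16.8 CPM in S, 23.0 in RVC and 60.6 in RVT), and SERPINH1, a collagen chaperone, was highest in RVC (26.8 and 64.1 CPM). Among those at 50 CPM, PDIA3 was highest in RV (80.7 CPM in S, 92.9 in RV) and lowest in RVC (51.0 CPM), and CANX was lowest in RV (82.2 and 60.6 CPM).

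Genes that respond to cell handling did not follow 1 direction. The 8 immediate-early genes together held 282, 325, 321 and 333 CPM in S, RV, RVC and RVT, a sum in which JUNB and IER2 weigh most in S. Gene by gene, without a limit on level, 5 of 8 were at least 2-fold higher and 2 lower in RVC over S (median log2 ratio 1.85), and 4 and 2 in RVT over S (0.93). For these counts, the share of all genes was not counted. Of the 4 that reached 50 CPM in RVC over S, 2 were higher and 1 lower, against 24.9% and 31.8% of all genes. Of the 5 that did in RVT over S, 3 were higher and 2 lower, against 26.4% and 33.1%. EGR1 was at 22.1 CPM in S, 98.8 in RVC and 114 in RVT, FOS was at 8.88 CPM in S, 50.7 in RVC and 67.6 in RVT, and FOSB was at 2.92, 41.4 and 66.7 CPM, whereas JUNB was at 106 CPM in S, 11.9 in RVC and 13.3 in RVT. IER2 was the highest against S in RV among those at 50 CPM (118 CPM in S, 161 in RV). All cultures were trypsinized before capture, and the part of handling in the levels of HSPA1A and HSPA1B was not tested.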

How the data were processed

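The authors made 1 library per condition with the 10x Genomics Chromium v2 kit from 10000 loaded cells, demultiplexed with bcl2fastq 2.20.0.422 and counted with Cell Ranger on GRCh38 (its version is not given in the sources used here). The deposited values are raw UMI counts per gene and barcode. The barcodes of RVC and RVT equal in number the cells that the study names, and those of S and RV are more. Barcodes with under 500 genes or over 20% mitochondrial counts were left out. Scrublet (scanpy 1.11.5) marked at most 16 doublets per library by its own threshold, so the top scores were removed at 0.8% per 1000 barcodes, 150 to 870 per library. Between 36 and 102 barcodes were shared by any pair of libraries. The S, RV, RVC and RVT libraries totalled 58470570, 52329047, 32870878 and 25398374 UMIs.

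Counts were summed per library and divided by its total. Ratios have exact conditional 95% intervals, and shares have exact (Clopper-Pearson) ones. Of 32991 genes listed in all tables, those that reached 50 CPM in 1 of the libraries compared gave the share of all genes past 2-fold. Thinning used random seed 1. Phases were called with scanpy, GC content was taken from GENCODE 29, and TMM factors from edgeR 4.0.16 (R 4.3.3). Code was tested on simulated data. The members and lists were chosen with earlier results of these data known. Named outside the members are, of each list, the genes highest and lowest against S with at least 50 CPM, and the 3 genes closest to HSPD1 or to the sum of HSPA1A, HSPA1B, DNAJB1 and HSPH1 (genes in at least 10% of cells, ribosomal and mitochondrial genes left out); HSPA6, BAG3, HSPA9, HSPB3, HSPB8, DNAJC3, SDF2L1, DNAJB11 and EGR1 were added after their values were seen.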

Additional observations from a re-analysis of the deposited data

Results flagged for a closer look

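The barcodes left out for a mitochondrial share over 20%, 478 in RVC and 580 in RVT, are data the comparisons above do not use. Only 56 and 30 of them had 500 genes or more, so nearly all were also left out for few genes, and they hold 391278 and 411927 UMIs in all. In them, 8 levels in them were at least 1.5-fold above the kept cells of the same library with an interval of the ratio above 0. HSP90AA1 was at 1904 CPM in those of RVC against 1179 in kept cells, and at 922 CPM against 429 in RVT. HSPA8 was at 1012 CPM against 592 in RVC and at 1051 against 663 in RVT. In RVC, HSPA1B was at 53.7 CPM against 20.2, HSPH1 at 125 against 74.6, and HSPD1 at 687 against 457. In RVT, HSPA1A was at 53.4 CPM against 33.0. HSPE1 and HSPB1 were lower there than in kept cells, at 670 and 58.8 CPM in RVC and at 218 and 21.8 CPM in RVT. With 1 library per condition, no group was large enough to look for samples that stand apart.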

How the results depend on the processing

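The direction of 50 of 60 member ratios was the same under all scaling, weighting, filter, depth and GC alternatives that could be run; HSPA1B is too low for the GC bins. HSPB1 turned to 1.13 in RVC over S and to 1.00 in RVC over RV when centred on GC content. The other ratios that changed sign in some setting were HSPD1 in RVC over S, HSPE1 in RV over S, HSPA8 in RVT over RVC, HSP90AA1, HSP90AB1 and DNAJB1 in RVT over S, and HSP90AA1 and HSP90AB1 in RVT over RV. The members' median in RVC over S was 1.24 under TMM, 1.26 with a total free of ribosomal and mitochondrial genes, 1.496 with equal weight per cell, 1.13 centred on GC, 1.07 without HSPA1A and HSPA1B and 1.25 in G1 cells. In RVT over S it was -0.028 under TMM, 0.41 with the reduced total, -0.0069 centred on GC and 0.29 without HSPA1A and HSPA1B. In RVT over RVC it was -1.11, -0.70, -1.04 and -1.04 under those 4, and -0.60 in G1 cells. In RV over S it was 0.31 in thinned cells. Past 2-fold, RV over S had 1 member higher with equal weight per cell, in thinned cells and in G1 cells; RVC over S had 0 lower when centred on GC, and 5 higher under TMM, with the reduced total, centred on GC and in G1 cells; RVT over RVC had 6 lower under TMM; RVT over S had 2 lower and 3 higher under TMM and when centred on GC, and 2 higher without HSPA1A and HSPA1B. The causes were not tested. The restriction to G1 cells and the TMM and unfiltered counts of the other chaperone lists were chosen after seeing the data. Thinning with another seed moved 1 of 40 shares past its interval. In unthinned cells, 9, 8, 12 and 5 pairs correlated at 0.1 or more in S, RV, RVC and RVT. With genes of at least 10 CPM, 1773 of 7092 were 2-fold higher and 1727 lower in RVC over S, and 2662 of 7736 and 1789 in RVT over S. No paired analysis was possible because each condition has 1 library.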
